A study of Rattus norvegicus with 64 samples.

Results

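Adrenaline, noradrenaline, serotonin and dopamine act on blood cells through G protein-coupled receptors, and platelets take up serotonin from plasma and store it in granules. In this pathway a beta receptor raises cAMP, a receptor kinase and a beta-arrestin switch the receptor off, phosphodiesterases remove the cAMP, transporters clear the amine and monoamine oxidase degrades it. The report describes 8 genes of this pathway in rat whole blood: the receptors Adrb1 and Drd4, the receptor kinase gene Adrbk1, the arrestin gene Arrb2, the phosphodiesterase gene Pde4b, the serotonin transporter gene Slc6a4, the vesicular monoamine transporter gene Slc18a2 and the monoamine oxidase gene Maoa. They were chosen by symbol, and each of the 8 matched 1 identifier among the 26405 genes listed in any file. Of the 8 genes, 6 were detected, which means at least 10 counts in no fewer than 1 of every 2 rats whose files list the gene.

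RNA was sequenced from globin-depleted whole blood of 64 male Sprague-Dawley rats aged 85 to 90 days. Every rat received 4 injections 2 h apart, and blood was drawn by cardiac puncture 3 h after the last. The groups were saline at 22.5 C (saline, 6 rats), saline at 16 C (saline_cool, 5 rats), saline at 39 C, which produced environmentally induced hyperthermia (EIH, 16 rats), amphetamine at 22.5 C (AMPH_hyperthermic, 22 rats) and amphetamine at 16 C (AMPH_normothermic, 15 rats). Whole blood mixes many cell types, so a change in the share of a cell type and a change in RNA per cell cannot be told apart. Total counts ran from 19055615 to 40530319 per rat. The 5 rats with more than 5000 counts of the myoglobin gene Mb, a muscle transcript that cardiac puncture can carry into blood, were left out of the tests, which left 4 saline, 5 saline_cool, 15 EIH, 22 AMPH_hyperthermic and 13 AMPH_normothermic rats. Platelet, neutrophil, monocyte, T cell and hemoglobin markers were found in every kept rat at 1 or more of their genes. The rats' files carry 14 opening codes whose meaning the labels do not state. Saline rats share no code with EIH, saline_cool or AMPH_normothermic rats, and saline_cool rats share 1 code with 1 rat of each remaining group, so in those comparisons the code and the treatment cannot be told apart.

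The promoters of Slc18a2 and Maoa are shown because both genes were called among the 5 groups and again in a pairwise comparison. They come from RefSeq's rat promoter table, which matched 6 of the 8 members and has none for Slc6a4 and Arrb2. The last 250 bases before the start of Slc18a2 (GRCr8, chr1:268399771-268400020, plus strand) hold the cAMP response element TGACGTCA, a palindrome bound by CREB-family factors, from 52 to 45 bases before the start, in capitals. The last 250 bases before the start of Maoa (GRCr8, chrX:8681373-8681622, minus strand) hold 4 copies of the GC box GGGCGG or its reverse complement CCGCCC, the letters that Sp-family factors bind, in capitals.
Slc18a2: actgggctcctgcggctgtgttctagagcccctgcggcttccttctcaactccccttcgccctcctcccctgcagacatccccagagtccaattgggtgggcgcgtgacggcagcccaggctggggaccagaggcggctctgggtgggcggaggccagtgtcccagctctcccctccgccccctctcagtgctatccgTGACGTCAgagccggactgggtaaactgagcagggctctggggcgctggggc
Maoa: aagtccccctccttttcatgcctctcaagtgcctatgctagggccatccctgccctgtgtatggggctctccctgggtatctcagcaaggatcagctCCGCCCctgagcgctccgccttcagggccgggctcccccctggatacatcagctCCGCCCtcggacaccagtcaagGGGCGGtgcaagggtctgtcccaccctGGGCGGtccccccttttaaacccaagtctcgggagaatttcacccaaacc
Searched on both strands, the full response element occurred in 1.59% of the 33469 promoter windows of the table and the GC box in 30.5%. Of the 7 windows of the 6 matched genes, 1 held the full element and 4 held a GC box. A match is a description of letters only.

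The 2 receptors were at or near 0. Drd4, a dopamine receptor gene, was listed in the files of 16 rats (5 AMPH_hyperthermic, 6 AMPH_normothermic and 5 EIH rats) and had 0 counts in each, which over these 16 rats together allows up to 0.0068 CPM (counts per 1e6 after TMM scaling, a correction for library size and makeup; 3 counts, counting error only). Adrb1, the beta-1 adrenergic receptor gene best known from the heart, had 0 to 7 counts per rat and 87 counts in all over 64 rats. In the kept rats its counts ran from 0 to 7 in EIH with a median of 1, from 0 to 3 in AMPH_hyperthermic with a median of 0, and from 0 to 3 in AMPH_normothermic with a median of 1. The 4 saline rats had 3, 1, 2 and 4 counts and the 5 saline_cool rats 1, 0, 2, 1 and 1. The 5 rats left out for Mb had 1 to 3 Adrb1 counts, within the range of the kept rats. No fold change is given for Adrb1, because most rats lie at or under 3 counts. With no minimum on counts Adrb1 passed the test of any difference among the 5 groups (adjusted p = 0.0307, edgeR), with the highest count in an EIH rat.

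The receptor-switching genes Adrbk1 and Arrb2 varied little between groups. Adrbk1 encodes the kinase that phosphorylates activated beta receptors, and Arrb2 encodes the arrestin that then binds them. Mean Adrbk1 levels were 108 ± 26.5 in AMPH_normothermic (SD, n = 13), 108 ± 19.8 in saline (n = 4), 109 ± 11.6 in saline_cool (n = 5), 116 ± 22.8 in AMPH_hyperthermic (n = 22) and 123 ± 29.7 CPM in EIH (n = 15), so the highest mean was 1.15 times the lowest. The 4 saline rats had 98.9, 89.7, 135 and 108 CPM, the 5 saline_cool rats 90.0, 113, 114, 106 and 120 CPM, and all groups overlapped. Arrb2 means ran from 68.7 ± 18.7 CPM in saline to 85.2 ± 17.9 CPM in EIH, 1.24 times the lowest. The 4 saline rats had 61.3, 46.9, 90.0 and 76.8 CPM of Arrb2, and the 5 saline_cool rats had 75.7, 66.9, 74.6, 62.3 and 74.6 CPM. Neither gene passed a test of any difference among the 5 groups (edgeR's quasi-likelihood test, adjusted p = 0.577 for Adrbk1 and 0.327 for Arrb2).

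Adrbk1 passed in 1 of 8 pairwise comparisons. In the 5 file codes that hold both AMPH_normothermic and EIH rats, Adrbk1 ran from 79.6 to 155 CPM with a median of 91.6 in 10 AMPH_normothermic rats and from 116 to 153 CPM with a median of 143 in 7 EIH rats. The ranges overlap, and within each of the 5 codes the mean of the AMPH_normothermic rats was the lower one. With the code as a term Adrbk1 fell by 0.53 on the log2 scale in AMPH_normothermic against EIH (SE 0.13, adjusted p = 0.0145, edgeR). It was the only member called there, 1 of 6 tested, beside 12.4% of all genes tested in this comparison. Without the rats over 200 Mb counts the log2 fold change was -0.61 (adjusted p = 0.136), and with all rats of both groups and no code term it was -0.21 (adjusted p = 0.258). Arrb2 was also lower in AMPH_normothermic in each of the 5 codes, by a log2 fold change of -0.29 (SE 0.11) that did not pass (adjusted p = 0.104).

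Pde4b encodes a cAMP phosphodiesterase that is prominent in leukocytes. The 5 saline_cool rats lay within a narrow band, at 25.8, 25.0, 24.9, 26.9 and 24.3 CPM, while the 4 saline rats had 35.9, 42.2, 24.9 and 25.2 CPM. The range was 12.4 to 34.2 CPM with a median of 20.8 in EIH, 22.7 to 38.2 CPM with a median of 28.5 in AMPH_normothermic, and 0.539 to 44.9 CPM with a median of 22.3 in AMPH_hyperthermic. The lowest of these values, 12 counts, came from AMPH_hyperthermic replicate 21, and the next lowest rat of that group had 142 counts. Where both amphetamine groups share 5 file codes, Pde4b ran from 15.9 to 27.7 CPM (median 22.3) in 10 AMPH_hyperthermic rats and from 22.7 to 38.2 CPM (median 28.0) in 9 AMPH_normothermic rats. The hyperthermic rats had the lower mean in each of the 5 codes, and Pde4b fell by 0.40 on the log2 scale (SE 0.13, adjusted p = 0.0369, edgeR). Replicate 21 is not among those 10 rats. Without the rats over 200 Mb counts the log2 fold change was -0.47 (adjusted p = 0.0577), and with all rats and no code term it was -0.32 (adjusted p = 0.375). Against saline, EIH had a log2 fold change of -0.63 for Pde4b (SE 0.24, adjusted p = 0.0686), with 12 of 15 EIH rats below all 4 saline rats. With all 5 groups fitted together and the file code as a term it was -0.17 (adjusted p = 0.738, edgeR). Against saline_cool, EIH had a log2 fold change of -0.22 for Pde4b (SE 0.20, adjusted p = 0.468, edgeR). All 8 T cell marker genes fell in EIH against saline, with a median log2 fold change of -1.51. Between the amphetamine groups none of the 8 was called by edgeR or DESeq2, nor had any an unadjusted p under 0.05. Other leukocyte markers went both ways in AMPH_hyperthermic against AMPH_normothermic. Of the 7 monocyte markers tested, 3 were higher by edgeR. The 6 B cell markers had a median of 0.30, with 0 called by edgeR and 2 at an unadjusted p under 0.05. Of the 8 basophil or mast cell markers tested, 1 was higher, and of the 3 eosinophil markers 1 was lower, Ccr3 (-2.39). Of the 7 natural killer cell markers tested, 2 were lower by edgeR, Ncr1 (-1.71) and Klrb1a (-1.31), with a median of -0.83 and 4 at an unadjusted p under 0.05. Of the 8 neutrophil markers tested, 1 was lower by edgeR, Cxcr2 (-0.67), and 4 were called by DESeq2, with a median of -0.57 and 6 at an unadjusted p under 0.05. The part of these cells in the Pde4b values was not tested.

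Maoa encodes monoamine oxidase A, which degrades serotonin and the catecholamines in mitochondria. It was detected at a low level, at least 10 counts in 61 of 64 rats. The 4 saline rats had 0.768, 0.784, 1.37 and 0.885 CPM (39 to 47 counts), and the 5 saline_cool rats had 1.08, 0.260, 1.36, 2.26 and 0.783 CPM (7 to 64 counts). Levels ran from 0.273 to 12.7 CPM with a median of 2.95 in EIH, from 0.824 to 4.54 CPM with a median of 2.58 in AMPH_normothermic, and from 0.814 to 14.5 CPM with a median of 3.78 in AMPH_hyperthermic. The mean was lowest in saline (0.952 ± 0.285 CPM, SD, n = 4) and highest in AMPH_hyperthermic (4.38 ± 2.95 CPM, n = 22), 4.59 times as high. Among the 5 groups Maoa differed (adjusted p = 0.00161, edgeR), and of the 3 members called in that test it alone also passed with the file code as a term (adjusted p = 0.00836). The 3 called were Maoa, Slc6a4 and Slc18a2, 3 of 6 tested, beside 41.9% of all genes tested.

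**Figure D1:**
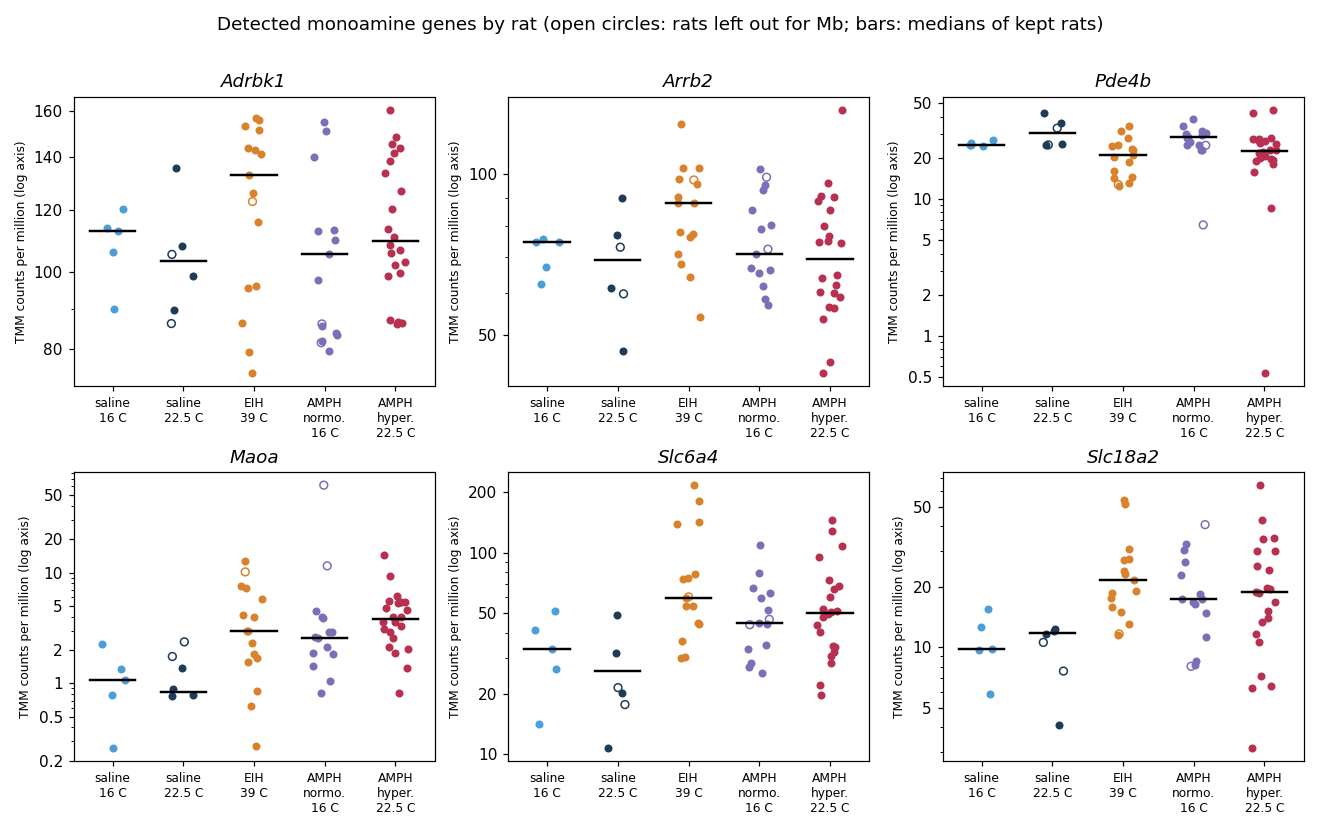
Level of each detected gene in CPM after TMM scaling (log axis) for each rat by group, with filled circles for kept rats, open circles for rats left out for Mb, and a black bar at the median of the kept rats. The Maoa medians of both saline groups, 0.835 and 1.08 CPM, lie below those of the other 3 groups, which are 2.58 to 3.78 CPM, and the Adrbk1 and Arrb2 groups overlap throughout.

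Between the amphetamine groups Maoa was higher in the hyperthermic rats. In the 5 shared file codes it ran from 2.12 to 5.55 CPM (median 3.44) in 10 AMPH_hyperthermic rats and from 0.824 to 4.54 CPM (median 2.58) in 9 AMPH_normothermic rats, and the hyperthermic mean was the higher one in each of the 5 codes. The log2 fold change was 0.77 (SE 0.24, adjusted p = 0.0325, edgeR). Maoa and Pde4b were the 2 of 6 members called, beside 15.7% of all genes tested. Maoa was sensitive to the Mb limit: with all rats kept the log2 fold change was 0.17 (adjusted p = 0.920), and without the rats over 200 Mb counts it was 1.00 (adjusted p = 0.0172). With all rats of both groups that were kept and no code term it was 0.80 (adjusted p = 0.050, at the threshold and not past it). Of the 9 cardiac muscle markers, 4 could be tested here, and none was called by edgeR or DESeq2 or had an unadjusted p under 0.05. In the kept rats the summed level of the 9 ran from 0.0832 to 85.2 CPM in AMPH_hyperthermic and from 0.377 to 75.4 CPM in AMPH_normothermic. Of the 7 monocyte markers tested, 3 were higher in the hyperthermic rats, Cd14 (0.76), Cd68 (0.73) and Csf1r (0.58), while Cx3cr1 (0.21), Lyz2 (0.11), Itgax (-0.17) and Ccr1 (-0.26) did not pass, and their part in the Maoa result was not tested.

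In the main edgeR fits, those described under processing, Maoa did not pass against the saline controls in any treated group. In the 8 AMPH_hyperthermic rats whose IDs end in W, as the IDs of the saline rats do, Maoa was above all 4 saline rats in 7 rats. The log2 fold change was 1.98 (SE 0.61, unadjusted p = 0.00607, adjusted p = 0.441 by edgeR's quasi-likelihood test), and 0 of 6 members and 0 of 12853 genes (0%) were called, with 1 member and 1322 genes at an unadjusted p under 0.05. It was called by DESeq2 (2.01, adjusted p = 0.0327) and by edgeR with all 22 AMPH_hyperthermic rats (2.22, adjusted p = 0.0219). In EIH against saline the log2 fold change was 1.98 (SE 0.72, adjusted p = 0.0621), in EIH against saline_cool 1.76 (SE 0.67, adjusted p = 0.0774) and in AMPH_normothermic against saline_cool 1.14 (SE 0.40, adjusted p = 0.183). DESeq2 called Maoa in EIH against both saline groups (2.03, adjusted p = 0.00928, and 1.76, adjusted p = 0.0207). These comparisons share rats with one another. The order of the group means was saline, saline_cool, AMPH_normothermic, EIH and AMPH_hyperthermic, and no neighbours in it differed by edgeR or DESeq2. The 4 saline rats and the 5 saline_cool rats did not differ detectably in Maoa (0.29, SE 0.47, 95% interval from -0.64 to 1.22, adjusted p = 0.722).

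Slc6a4 and Slc18a2 belong to the serotonin store of platelets. Slc6a4 carries serotonin into the platelet, and Slc18a2 loads it into the dense granules. The 4 saline rats had 31.7, 20.1, 49.4 and 10.7 CPM of Slc6a4, and the 5 saline_cool rats had 14.2, 51.3, 41.4, 26.4 and 33.3 CPM. EIH rats ran from 30.0 to 216 CPM with a median of 59.5, AMPH_normothermic rats from 25.3 to 109 CPM with a median of 44.7, and AMPH_hyperthermic rats from 19.8 to 144 CPM with a median of 50.3. For Slc18a2 the 4 saline rats had 12.0, 12.3, 11.7 and 4.11 CPM and the 5 saline_cool rats 5.85, 12.7, 9.82, 9.66 and 15.4 CPM. EIH rats ran from 11.5 to 54.2 CPM (median 21.6), AMPH_normothermic rats from 8.13 to 32.6 CPM (median 17.4) and AMPH_hyperthermic rats from 3.14 to 64.2 CPM (median 18.8). Both genes had the same order of group means, saline lowest, then saline_cool, AMPH_normothermic, AMPH_hyperthermic and EIH, from 28.0 to 84.1 CPM (3.00-fold) for Slc6a4 and from 10.0 to 24.7 CPM (2.47-fold) for Slc18a2. No neighbours in that order differed by edgeR without a replicate block. With the block AMPH_normothermic and saline_cool differed in both genes, but the replicate numbers were not taken to pair the rats. The test of any difference among the 5 groups passed for both (adjusted p = 0.00934 and 0.0305, edgeR) and no longer passed with the file code as a term (0.371 and 0.0929). Without the rats over 200 Mb counts Slc18a2 did not pass either (0.0995).

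Slc18a2 was the member called in EIH against either saline group. Against saline, 14 of 15 EIH rats were above all 4 saline rats, and the log2 fold change was 1.27 (SE 0.39, adjusted p = 0.0329, edgeR). Against saline_cool, 12 of 15 EIH rats were above all 5 and the log2 fold change was 1.24 (SE 0.34, adjusted p = 0.0178). In each comparison 1 of 6 members was called, beside 16.5% and 14.5% of all genes tested, a share near the background. The 2 comparisons share the 15 EIH rats. For Slc6a4 the log2 fold changes were 1.57 (SE 0.54, adjusted p = 0.0515) and 1.37 (SE 0.47, adjusted p = 0.0508), neither of which passed. DESeq2 called Slc6a4 in both (adjusted p = 0.00742 and 0.0110), and edgeR called it against saline with relative log expression scaling (1.65, adjusted p = 0.0488) and without saline replicate 19 (1.97, adjusted p = 0.0412). The Slc18a2 calls did not pass when all 5 groups were fitted together with the file code as a term (log2 fold change 1.48, adjusted p = 0.116 against saline and 1.37, adjusted p = 0.130 against saline_cool). Against saline the call was also lost without the rats over 200 Mb counts (0.94, adjusted p = 0.0761) and with any 1 of the 4 saline rats left out (adjusted p from 0.0522 to 0.114), and against saline_cool without replicate 1, 3 or 4 (adjusted p from 0.0527 to 0.0607).

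Platelet markers were higher in EIH against both saline groups, the comparisons in which Slc18a2 was called. Of the 13 platelet marker genes, 12 were higher in EIH against saline, with a median log2 fold change of 1.67, and 4 were higher in EIH against saline_cool, with a median of 1.06, and none was lower in either. The summed level of the 13 ran from 911 to 2223 CPM in the 4 saline rats, from 2295 to 4699 CPM in the 5 saline_cool rats, from 2404 to 12819 CPM in EIH, from 1559 to 5707 CPM in AMPH_normothermic and from 910 to 7578 CPM in AMPH_hyperthermic, and no marker was at 0 in any kept rat. Per 1000 CPM of platelet markers, Slc18a2 had a median of 5.56 in saline and 5.11 in EIH, and Slc6a4 had 14.1 and 16.9. In saline_cool the same medians were lower, 3.16 for Slc18a2 and 8.81 for Slc6a4. They were 5.77 and 15.5 in AMPH_normothermic and 6.36 and 15.6 in AMPH_hyperthermic. The summed platelet level did not follow the transporters across all groups. Its mean was 3486 CPM in saline_cool and 3277 CPM in AMPH_normothermic, while both transporters had the higher mean in AMPH_normothermic. The sum gives most weight to the markers with the most counts, Pf4 (median 48946) and Clec1b (18637). The values per 1000 CPM rest on the same sum. In AMPH_normothermic against saline_cool the log2 fold change was -0.33 for Pf4 and 0.01 for Clec1b. The median of the 13 markers there was 0.35, with 0 called by edgeR. The part of platelet share in the transporter values was not tested.

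**Figure D2:**
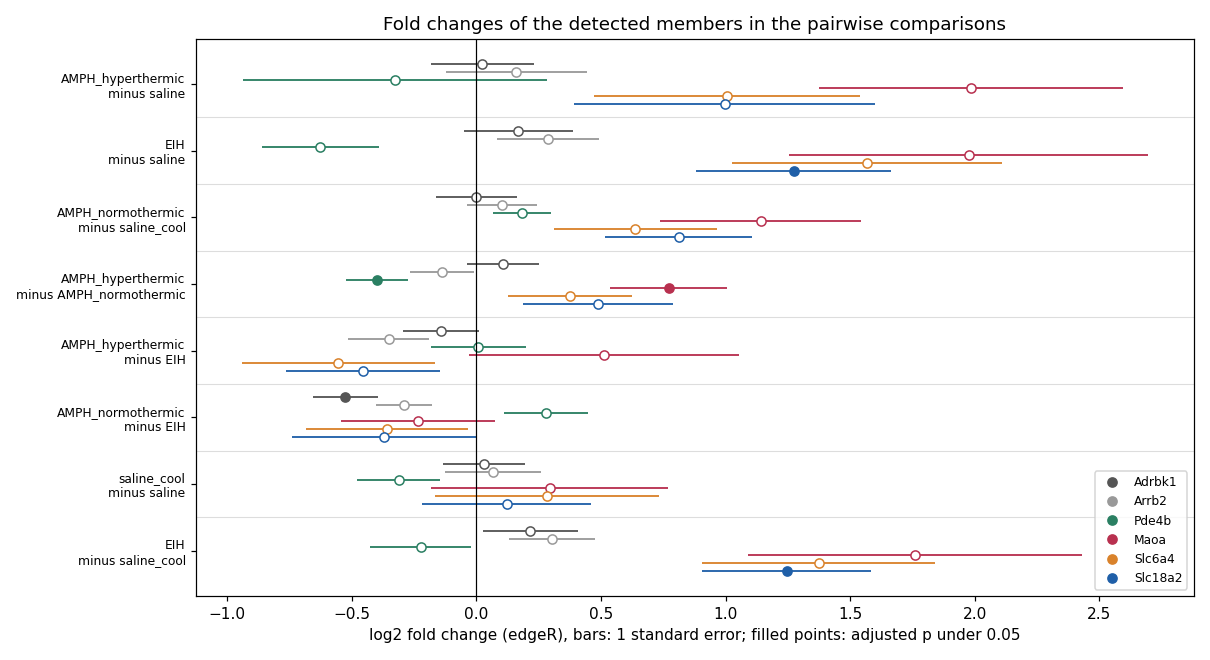
Fitted log2 fold change of each detected gene in the 8 pairwise comparisons, with bars of 1 standard error and filled points where the adjusted p is under 0.05. The 5 filled points are Slc18a2 in EIH against both saline groups, Maoa and Pde4b between the amphetamine groups, and Adrbk1 in AMPH_normothermic against EIH.

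Amphetamine against saline gave no call among the members in the main edgeR fits. At 22.5 C Maoa was called by DESeq2 and by edgeR with all AMPH_hyperthermic rats, as given above. At 16 C Slc18a2 (1.16) and Slc6a4 (1.07) were called with the replicate number as a block, but these numbers were not taken to pair the rats. At 22.5 C the log2 fold changes were 1.01 for Slc6a4 (SE 0.54, adjusted p = 0.50), 1.00 for Slc18a2 (SE 0.61, adjusted p = 0.524), -0.33 for Pde4b, 0.16 for Arrb2 and 0.02 for Adrbk1. At 16 C they were 0.64 for Slc6a4 (SE 0.33, adjusted p = 0.353), 0.81 for Slc18a2 (SE 0.29, adjusted p = 0.191), 0.18 for Pde4b, 0.10 for Arrb2 and -0.001 for Adrbk1. There 0 of 6 members were called by the main edgeR fit or DESeq2, beside 0.492% of all genes tested. Of the 6 members, 2 had an unadjusted p under 0.05 at 16 C, Maoa and Slc18a2. The amphetamine effect at 22.5 C minus that at 16 C was 1.06 for Maoa (SE 0.75, adjusted p = 0.584), and 0.33 with the file code as a term (adjusted p = 0.962), and no member passed this test of the difference. AMPH_hyperthermic against EIH, the comparison of 2 hyperthermic states, gave 0 of 6 members called by edgeR or DESeq2 beside 0.133% of all genes tested. There Slc6a4 had a log2 fold change of -0.55 (SE 0.39, 95% interval from -1.32 to 0.21), and Arrb2 was the 1 member with an unadjusted p under 0.05 (0.0428). Saline_cool against saline gave 0 of 6 called by edgeR or DESeq2 beside 0.00817% of all genes tested, and no member had an unadjusted p under 0.05.

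Likeness was measured as Pearson's r of log2(CPM + 1) over the 59 kept rats after each group's mean was subtracted, among 7235 genes with a mean of at least 5 CPM. The genes share libraries, depth and cell mixture, so these are descriptions. The gene most like Slc6a4 was Itga2b, the platelet integrin alpha IIb (r = 0.892), followed by Tspan9 (0.877) and Ppif (0.876). The genes most like Slc18a2 were Tmem117 (0.873), Pls1 (0.858) and Chrdl1 (0.858). The r between both transporters was 0.644, and 0.721 without AMPH_hyperthermic replicate 21. For Maoa they were Ctsl1, a lysosomal cathepsin gene (0.861), Arhgef10l (0.809) and Dnajb11 (0.805). For Pde4b they were Kdm6a (0.910), Med14 (0.901) and Trpm7 (0.900), which without AMPH_hyperthermic replicate 21 fell to 0.711, 0.684 and 0.674. Their ranks were then 16, 39 and 48, so they were the genes most like Pde4b only with that rat included. Adrbk1 was most like Dvl2 (0.777), Fam101b (0.753) and Srpk1 (0.730), and Arrb2 was most like Ino80e (0.745), Rnf167 (0.730) and B3gat3 (0.726). Maoa had an r of -0.214 with Slc6a4 and -0.139 with Slc18a2.

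**Figure D3:**
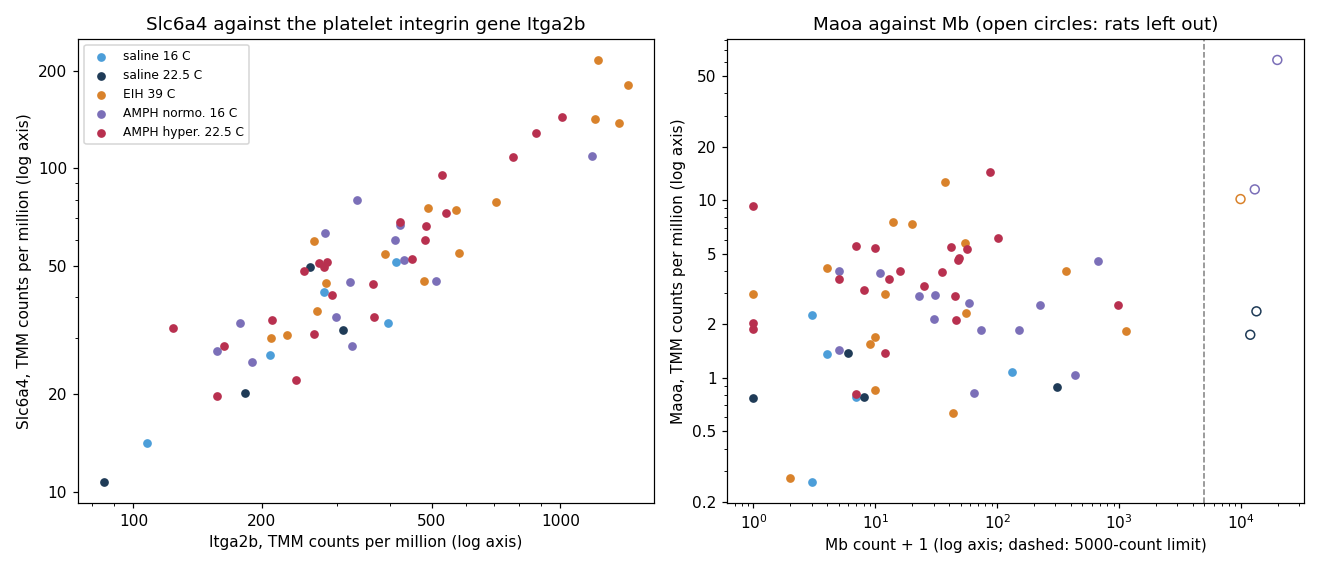
Left, Slc6a4 against Itga2b in CPM after TMM scaling in each kept rat (log axes), where the 2 genes rise together across all 5 groups. Right, Maoa in CPM against the Mb count plus 1 (log axes), where open circles mark the 5 rats over 5000 Mb counts and the highest Maoa value, 61.6 CPM, is in one of them.

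Around the members, 99 genes of amine receptors, synthesis, breakdown, transport, receptor switching, G proteins, adenylyl cyclases, protein kinase A, cAMP phosphodiesterases and cAMP-driven transcription were counted, of which 96 are in the files. Few amine receptors and transporters could be tested, for want of counts or because not every file lists them: 5 of 32 receptor genes and 1 of 7 transporter genes were tested over the 5 groups, against 6 of 6 G protein genes and 8 of 9 phosphodiesterase genes. Among 57 genes tested, 32 differed among the 5 groups, and 21 with the file code as a term, beside 41.9% of all genes tested without it. The share of all genes with the term is not reported here, so the 21 has no background beside it. In EIH against saline 12 of 54 were higher and 6 lower, with a median log2 fold change of 0.39 beside -0.01 over all genes, of which 16.5% were called, 920 higher and 1221 lower. The platelet markers were higher there too, 12 of 13, and their part in these values was not tested. The 4 with the largest change were the serotonin receptor gene Htr7 (2.86, SE 0.76), the cAMP-responsive modulator gene Crem (2.51, SE 0.64), the phosphodiesterase gene Pde3a (2.34, SE 0.60) and the histamine receptor gene HRH3 (-2.08, SE 0.66). In EIH against saline_cool 13 of 48 were higher and 1 lower, beside 14.5% of all genes, 1051 higher and 758 lower. They were led by Pde3a (2.55, SE 0.54), the adenylyl cyclase gene Adcy5 (2.16, SE 0.48), Crem (2.14, SE 0.55) and Pnmt, the enzyme that makes adrenaline (-2.06, SE 0.43). The median there was 0.43 beside 0.08 over all genes. With all 5 groups fitted together and the file code as a term, 3 and 5 of these genes passed in the 2 comparisons in place of 18 and 14. Without saline replicate 17, without saline replicate 18, without saline replicate 21 or without the rats over 200 Mb counts, 1, 1, 7 and 7 passed in EIH against saline, and without saline_cool replicate 1, 8 passed in EIH against saline_cool.

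Between the amphetamine groups 6 of 46 pathway genes were higher in the hyperthermic rats and none lower, beside 15.7% of all genes tested, 958 higher and 945 lower, so the share called was not above the background. They included the other monoamine oxidase gene Maob (0.99, SE 0.21, adjusted p = 0.00413, edgeR), and Hdc, the histamine-forming enzyme of basophils and mast cells (1.74, SE 0.54). Pde3a (1.29, SE 0.27) and the protein kinase A regulatory gene Prkar2b (0.85, SE 0.18) were the others of the 4 with the largest change. In AMPH_normothermic against EIH 3 of 47 were lower and none higher, a smaller share than the 12.4% of all genes tested, among them Pde3a (-1.38, SE 0.34) and the CREB coactivator gene Crtc3 (-0.91, SE 0.21). Without the rats over 200 Mb counts 0 of these passed. No pathway gene was called by the main edgeR fits in AMPH_hyperthermic against saline (50 tested), AMPH_normothermic against saline_cool (50), AMPH_hyperthermic against EIH (46) or saline_cool against saline (48). DESeq2 called 3, 7, 0 and 9, beside 200, 406, 267 and 1355 of all genes. In edgeR 10, 12, 3 and 18 had an unadjusted p under 0.05, beside 1322 of 12853, 1922 of 12396, 1568 of 12055 and 3191 of 12238 genes.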

How the data were processed

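Per the labels and the study's methods, reads from globin-depleted blood, 1 library per rat, were clipped with fastq-mcf and aligned to the rat transcriptome (rn5) with bowtie 0.12.9. The authors quantified genes with RSEM 1.2.0 and deposited expected counts, not normalized, 1 file per rat. The expected counts were rounded for the fits. The files hold 6 gene lists (17366 genes in all files), and genes absent from a rat's list count as unmeasured there, not as 0.

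Each comparison was fitted on all genes listed in its files with edgeR 4.0.16 in R 4.3.3 (TMM scaling, quasi-likelihood test, at least 10 counts in as many rats as the smaller group, Benjamini-Hochberg adjustment over all genes tested, called at an adjusted p under 0.05). The standard error is the log2 fold change divided by the square root of F, and 95% intervals are 1.96 standard errors either side. Rats over 5000 Mb counts were left out. AMPH_hyperthermic was set against saline in the 8 rats with W IDs. The comparisons AMPH_hyperthermic against AMPH_normothermic, AMPH_hyperthermic against EIH and AMPH_normothermic against EIH used the rats of shared file codes with the code as a term. DESeq2 1.42.0, relative log expression scaling, no count minimum, other sets of rats, leaving out each control and a replicate block were the alternatives. Floors and intervals cover counting error only where they rest on counts. Adrbk1 is listed as Grk2 in the promoter table.

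All 8 members are named with their values, the called genes of the wider pathway list by size (at most 4 per comparison, with 1 called gene not reported here), and the 3 genes most like each detected member. Members and lists were chosen with earlier results of these data known. Within groups no pair of rats had a chi-square per gene under 52.4, above sampling noise, so no rat was counted as a repeat of another. Only the fits of AMPH_hyperthermic against saline and against AMPH_normothermic were also run on simulated counts with known changes. The share recovered is not reported here. The total count per rat, 19055615 to 40530319, sets the counting error, which is largest for Adrb1, Drd4 and Maoa.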

Additional observations from a re-analysis of the deposited data

Results flagged for a closer look

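Saline replicate 21 had the lowest Slc18a2 level of its group, 4.11 CPM, far from the other 3 kept saline rats at 11.7 to 12.3 CPM. Of 12 group and gene combinations tested for a sample standing apart, this was the 1 that passed, and chance gives about 1 in 20 per combination. Only saline and saline_cool were tested, because EIH and both amphetamine groups were too large for the test. AMPH_hyperthermic replicate 21, with 0.539 CPM of Pde4b, was therefore outside it. Saline replicate 21 had 310 Mb counts and a Slc6a4 level of 10.7 CPM, also the lowest of its group.

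In the rats left out for Mb, values of detected genes above every kept rat of the same group and of both saline groups were 61.6 CPM of Maoa in AMPH_normothermic replicate 2 (923 counts, 19852 Mb counts), 11.5 CPM of Maoa in AMPH_normothermic replicate 12 (215 counts, 12973 Mb counts), 40.8 CPM of Slc18a2 in AMPH_normothermic replicate 2, and 2.37 CPM of Maoa in saline replicate 22 (13382 Mb counts). The highest kept AMPH_normothermic rat had 4.54 CPM of Maoa and 32.6 CPM of Slc18a2, and the highest kept rat of both saline groups had 2.26 and 15.4 CPM. The part of Mb-rich tissue in these values was not tested.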

How the results depend on the processing

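Over 546 recomputed values of single members, 473 kept their direction and their side of the threshold, 21 were no longer called, 16 became called and 36 changed sign, none of the last called. Counts were lowest, and depth most limiting, for Adrb1, Drd4 and, in some rats, Maoa. The cause of the changes was not tested.

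The number of members called changed as follows. In AMPH_hyperthermic against saline it went from 0 to 1 by DESeq2 and with all AMPH_hyperthermic rats. In EIH against saline it went from 1 to 0 in 1 fit of all 5 groups with the code or without rats over 200 Mb counts, to 2 with relative log expression scaling, to 3 by DESeq2, to 4 with all rats kept whatever their Mb, and to 0 to 1 with 1 saline rat left out. In AMPH_hyperthermic against AMPH_normothermic it went from 2 to 1 with all rats kept or without rats over 200 Mb counts, and to 0 with all rats and no code. In AMPH_normothermic against EIH it went from 1 to 2 by DESeq2 and to 0 without rats over 200 Mb counts. In EIH against saline_cool it went from 1 to 3 by DESeq2, to 0 in 1 fit of all 5 groups with the code, and to 0 to 1 with 1 saline_cool rat left out. Among the 5 groups it went from 3 to 1 with the code as a term. The limit of 200 Mb counts was chosen after seeing the data. Pathway genes called in AMPH_normothermic against EIH went from 3 to 9 by DESeq2, to 19 with all rats and no code, and to 14 with the replicate block, and in EIH against saline_cool from 14 to 5 with the block. In AMPH_hyperthermic against saline they went from 0 to 3 in 1 fit with the code and to 6 with all AMPH_hyperthermic rats, and in saline_cool against saline from 0 to 10 without saline replicate 19. Over all genes DESeq2 called 200 in place of 0 in AMPH_hyperthermic against saline, 3346 in place of 2141 in EIH against saline, 406 in place of 61 in AMPH_normothermic against saline_cool, 267 in place of 16 in AMPH_hyperthermic against EIH and 1355 in place of 1 in saline_cool against saline. It called 2651 in place of 1809 in EIH against saline_cool and 2140 in place of 1503 in AMPH_normothermic against EIH. Between the amphetamine groups it called 2418 in place of 1903. For the other alternatives the number over all genes is not reported here, so those counts have no background beside them.

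With the replicate number as a block the count went from 0 to 2 in AMPH_normothermic against saline_cool (Slc18a2 1.16 and Slc6a4 1.07) and from 1 to 0 in EIH against saline_cool. It stayed at 0, 2, 0 and 1 in AMPH_hyperthermic against saline, AMPH_hyperthermic against AMPH_normothermic, AMPH_hyperthermic against EIH and AMPH_normothermic against EIH, where Pde4b was called (0.43) in place of Adrbk1 (-0.26). In no comparison did every pair of same-numbered rats correlate above 0.1, so the numbers do not pair the rats.

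The log2 fold changes that changed sign were these. Adrbk1 in AMPH_hyperthermic against saline was -0.016 in 1 fit with the code and -0.014 in shared codes, and ran from -0.056 to 0.15 with 1 rat left out. In AMPH_normothermic against saline_cool it was 0.00074 by DESeq2, 0.055 without rats over 200 Mb counts, 0.00078 with relative log expression scaling, and from -0.057 to 0.029 with 1 saline_cool rat left out. Between the amphetamine groups it was -0.0024 without rats over 200 Mb counts, and in saline_cool against saline it ran from -0.044 to 0.18 with 1 rat left out. Arrb2 was -0.36 in 1 fit with the code and -0.17 with the replicate block in AMPH_normothermic against saline_cool, -0.099 in 1 fit with the code in EIH against saline_cool, and with 1 rat left out ran from -0.020 to 0.31 in AMPH_hyperthermic against saline and from -0.075 to 0.25 in saline_cool against saline. Pde4b was -0.065 in 1 fit with the code in AMPH_normothermic against saline_cool, 0.19 so in saline_cool against saline, and in AMPH_hyperthermic against EIH -0.010 by DESeq2 and with relative log expression scaling and -0.026 without rats over 200 Mb counts. Slc6a4 was -0.19 in 1 fit with the code in AMPH_normothermic against saline_cool and 0.088 without rats over 200 Mb counts in AMPH_normothermic against EIH. Maoa in AMPH_normothermic against EIH was 0.45 with all rats kept, 0.0057 without rats over 200 Mb counts and 0.031 with the replicate block. In saline_cool against saline Maoa was -0.51 in 1 fit with the code, -0.18 with all rats kept and from -0.097 to 0.55 with 1 rat left out, and Slc18a2 was -0.14 without rats over 200 Mb counts and from -0.14 to 0.27 with 1 rat left out.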
